A study of Mus musculus with 49 samples.

Results

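The 44 genes described here encode the machinery that stores transmitter in synaptic vesicles, docks and fuses the vesicles, retrieves their membrane, and holds the presynaptic and postsynaptic sides together. They were taken by gene symbol from a list of names, and all 44 were found among the 52550 genes of the count table. The list holds 6 SNARE proteins and complexins, 6 synaptotagmins, 11 vesicle proteins, 7 active zone and priming proteins, 3 endocytosis proteins, 5 adhesion proteins and 6 postsynaptic scaffolds. Poly(A) RNA was sequenced from ES-D3 cells, an established mouse embryonic stem cell line, during the neural embryonic stem cell test, in which the cells form embryoid bodies and then differentiate toward neural cells. The 7 groups were untreated cells on days 0, 7 and 13, and cells given 2 µM fluoxetine or 90 µM venlafaxine from day 3 and collected on day 7 or day 13. Fluoxetine is a selective serotonin reuptake inhibitor and venlafaxine a serotonin and noradrenaline reuptake inhibitor, both used as antidepressants. All groups came from the same line with no stated genetic change, the day 0 cells were controls that never received a drug, and the labels do not say whether the controls received a solvent. Each group had 7 libraries, 49 in all, with 14059811 to 29225775 counts in genes. Nothing in the labels says that the libraries of a group came from separate cultures, so p-values measure only the spread between these samples, which may be technical.

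A nerve terminal releases transmitter when calcium enters and binds synaptotagmins on docked vesicles. The vesicle SNARE then zips onto the plasma membrane SNAREs, under the control of complexins, and the membranes fuse. Active zone proteins such as RIM, Munc13, Bassoon and Piccolo tether and prime vesicles at the release site, and clathrin adaptors, amphiphysin and dynamin retrieve the membrane afterwards. Neurexins on the presynaptic side bind neuroligins on the postsynaptic side, where PSD-95, Shank and Homer proteins anchor receptors. In stem cells and other cells that are not neurons, many genes of this kind are held down by the repressor REST, which binds a long DNA element called RE1.

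The promoter of Syn1, which encodes synapsin I and tethers vesicles to the cytoskeleton, is shown because it was the only member window searched that held an RE1-like element. RefSeq windows on GRCm38.p6, from 250 bases before to 50 after a gene start, were found for 32 of the 44 genes, 47 windows in all. Both strands were searched for the canonical RE1 element, allowing 4 mismatches at its 19 defined letters, which lie on either side of an undefined pair. Such a match was present in 75 of 32851 windows, or 0.228%. The Syn1 window is chrX:20920869-20921168 on the minus strand, and the capitals mark the element, which starts 232 bases before the gene start.
Syn1: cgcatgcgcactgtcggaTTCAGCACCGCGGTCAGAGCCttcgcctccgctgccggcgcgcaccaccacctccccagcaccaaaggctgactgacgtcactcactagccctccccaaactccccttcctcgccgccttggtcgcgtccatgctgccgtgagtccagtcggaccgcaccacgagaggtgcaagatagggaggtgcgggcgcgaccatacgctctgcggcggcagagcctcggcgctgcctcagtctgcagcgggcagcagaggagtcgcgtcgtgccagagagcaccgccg

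The Syn1 element had 2 mismatches, and 10 windows of all genes (0.0304%) matched this well. The next best member windows were those of Syt2 (chr1:134646362-134646661, plus strand) and Unc13a (chr8:71671708-71672007, minus strand), each with 5 mismatches, a number that 488 windows (1.49%) met or bettered. Capitals mark the letters that match the searched element, and the 2 undefined positions are in lower case.
Syn1 element: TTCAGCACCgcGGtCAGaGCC
Syt2 best stretch: cTgcGCACCgaGGACAGtcCC
Unc13a best stretch: TTCAGCACCggGGgCgcgGaC
The E-box CAGCTG, a letter pattern bound by proneural helix-loop-helix factors, was found in the windows of 13 members, 13 of 47 windows, beside 16.3% of all windows. The median share of G and C letters was 60.0% in member windows and 52.7% in all windows, and the E-box counts were not adjusted for it. One such window belongs to Stx1a, which encodes the plasma membrane SNARE syntaxin 1A and whose venlafaxine values are given further on. It is chr5:135023232-135023531 on the plus strand, with the E-box in capitals.
Stx1a: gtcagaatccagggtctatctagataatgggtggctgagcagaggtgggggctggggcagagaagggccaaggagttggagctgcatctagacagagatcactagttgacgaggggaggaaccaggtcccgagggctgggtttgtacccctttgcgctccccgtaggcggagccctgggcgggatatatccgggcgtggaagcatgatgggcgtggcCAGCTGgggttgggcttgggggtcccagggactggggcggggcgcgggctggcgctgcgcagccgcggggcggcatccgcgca
These matches describe letters only, and neither binding nor methylation was measured here.

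Levels are given as CPM, counts scaled to a common library total after TMM scaling over all 49 libraries, as the lowest, median and highest of the 7 libraries. A gene was called when edgeR's quasi-likelihood test gave a Benjamini-Hochberg adjusted p under 0.05 over all genes tested, and a log2 fold change is followed by its standard error. The summed CPM of the 44 genes was 337.5, 347.6 and 360.5 on day 0, 908.8, 981.5 and 1042 on day 7, and 5186, 5776 and 6585 on day 13 in untreated cells. The summed CPM of 10 neuron markers moved over the same days, at 295.5, 306.8 and 309.2 on day 0, 1657, 2084 and 2293 on day 7, and 5741, 6756 and 7819 on day 13. The ratio of the members' sum to the neuron markers' sum was 1.144 ± 0.0377 on day 0, 0.486 ± 0.0313 on day 7 and 0.867 ± 0.0331 on day 13 (SD, n = 7 libraries), and the part of neuron content in the course was not tested. In bulk RNA, fewer cells of a type and less RNA per cell cannot be told apart.

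**Figure D1:**
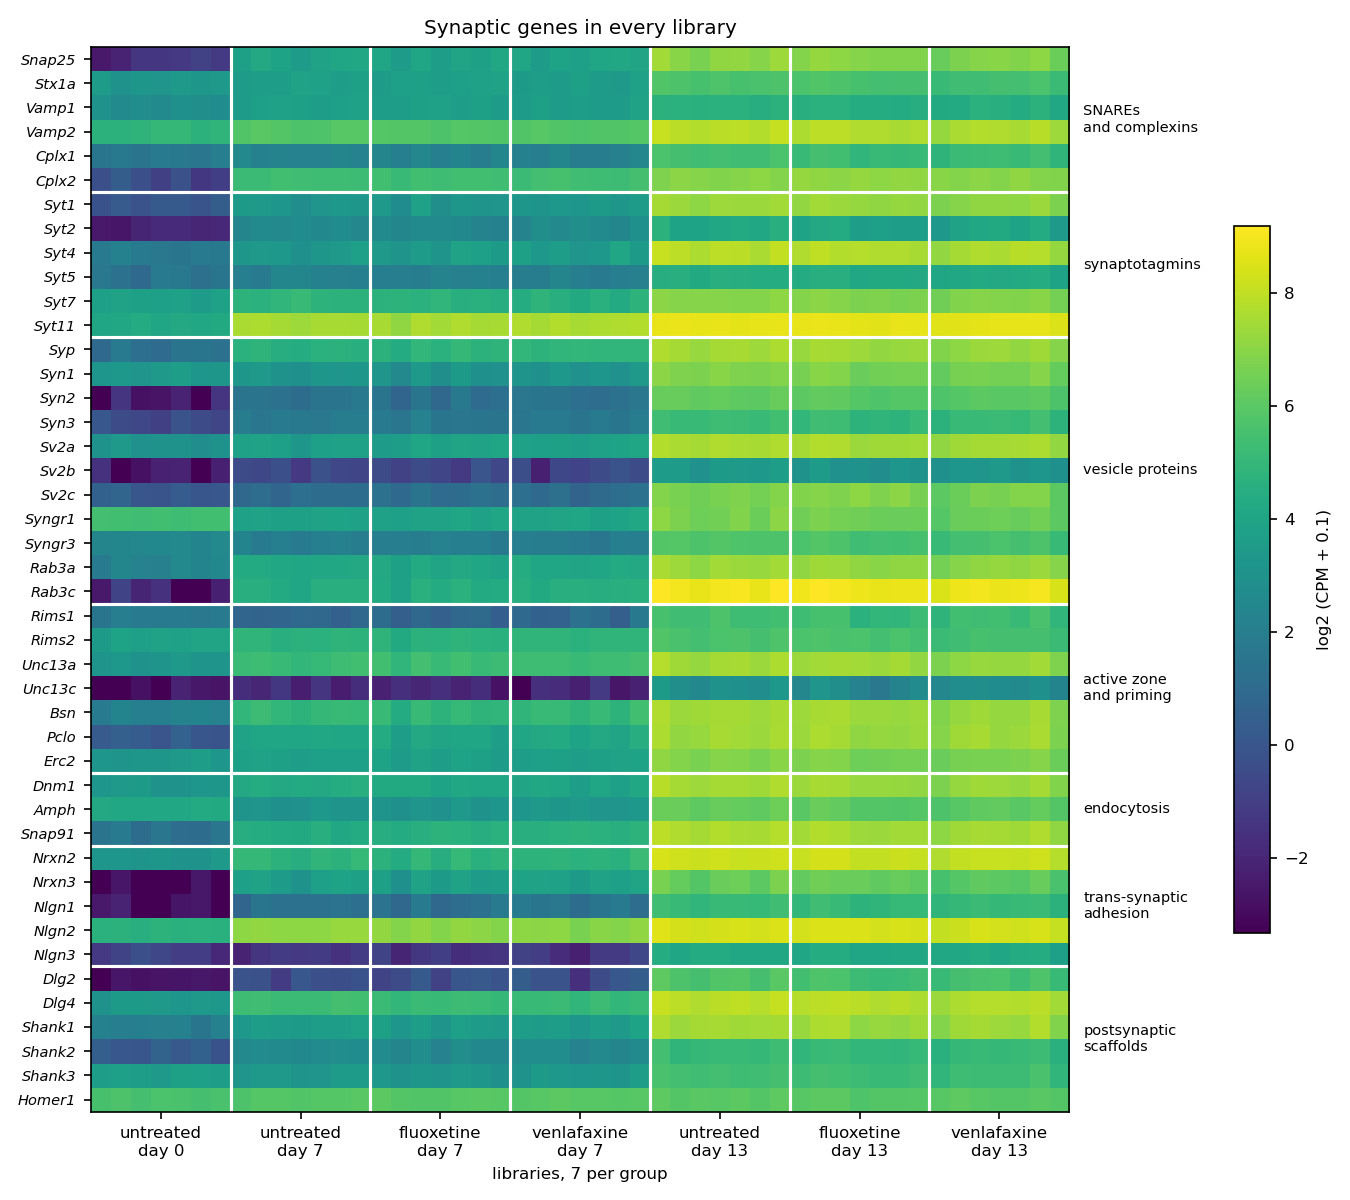
Heat map of log2(CPM + 0.1) for the 44 genes (vertical axis, grouped by role) in the 49 libraries (horizontal axis, 7 per group). The untreated summed level goes from a median of 347.6 CPM on day 0 to 5776 CPM on day 13, and the drug groups of a day look much like the controls of that day at this scale.

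From day 0 to day 7, 37 of the 44 genes rose and 5 fell, while 88.8% of all 16969 genes tested were called, 45.3% higher and 43.4% lower. The median log2 change was 1.77 over the 44 genes and 0.03 over all genes. All 6 SNARE and complexin genes and all 6 synaptotagmins rose. So did 8 of 11 vesicle proteins, 6 of 7 active zone genes, 2 of 3 endocytosis genes, 4 of 5 adhesion genes and 5 of 6 scaffolds. The day 13 group shared this fit. With only the day 0 and day 7 groups in the fit, 34 rose and 5 fell, beside 90.9% of all genes called. Sv2b, Unc13c and Dlg2, which are among the 37, were then not called. Rab3c, a small GTPase of vesicles, had 17 counts over the whole day 0 group and rose by 7.11 ± 0.231. Cplx2, a complexin that both clamps and promotes fusion, rose by 5.92 ± 0.108, and Snap25, a plasma membrane SNARE, by 5.78 ± 0.262. Nrxn3, a presynaptic neurexin, had 2 counts in the day 0 group, with 5 libraries at 0, so its fitted fold change is not given. On day 7 it stood at 8.41, 13.3 and 15.0 CPM.

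The 5 genes that fell by day 7 were present in the undifferentiated cells. Syngr1, a vesicle membrane protein, went from 39.4, 42.4 and 44.1 CPM to 13.6, 14.3 and 15.2 CPM, a change of -1.54 ± 0.0941. Rims1, which links vesicles to calcium channels, went from 2.80, 3.37 and 3.94 CPM to 1.339, 1.601 and 1.821 CPM, a change of -1.06 ± 0.103. Amph, which brings dynamin to the neck of budding vesicles, went from 17.2, 17.8 and 20.2 CPM to 7.64, 8.75 and 9.99 CPM, a change of -1.06 ± 0.0652. The day 0 and day 7 libraries of these 3 genes did not overlap, as was so in this direction for 37.9% of all genes. Syngr3 changed by -0.45 ± 0.0741 and the postsynaptic scaffold Shank3 by -0.30 ± 0.0692. Syn1, with the RE1-like element, was at -0.10 and Nlgn3 at -0.57, and neither was called (adjusted p 0.22 and 0.0599).

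From day 7 to day 13, all 44 genes rose, while 83.0% of all genes tested were called and 42.1% were called higher. The median log2 change was 3.17 over the 44 genes and 0.01 over all genes. In 43 of the 44 genes every day 13 library stood above every day 7 library, which held for 32.7% of all genes, and the exception was Homer1. The 5 genes that had fallen by day 7 rose as well, and the medians of all 5 on day 13 lay above those of day 0, as the plot of the untreated course shows. Syngr1 reached 84.2, 106.8 and 131.6 CPM and Rims1 39.4, 41.4 and 51.5 CPM.

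**Figure D2:**
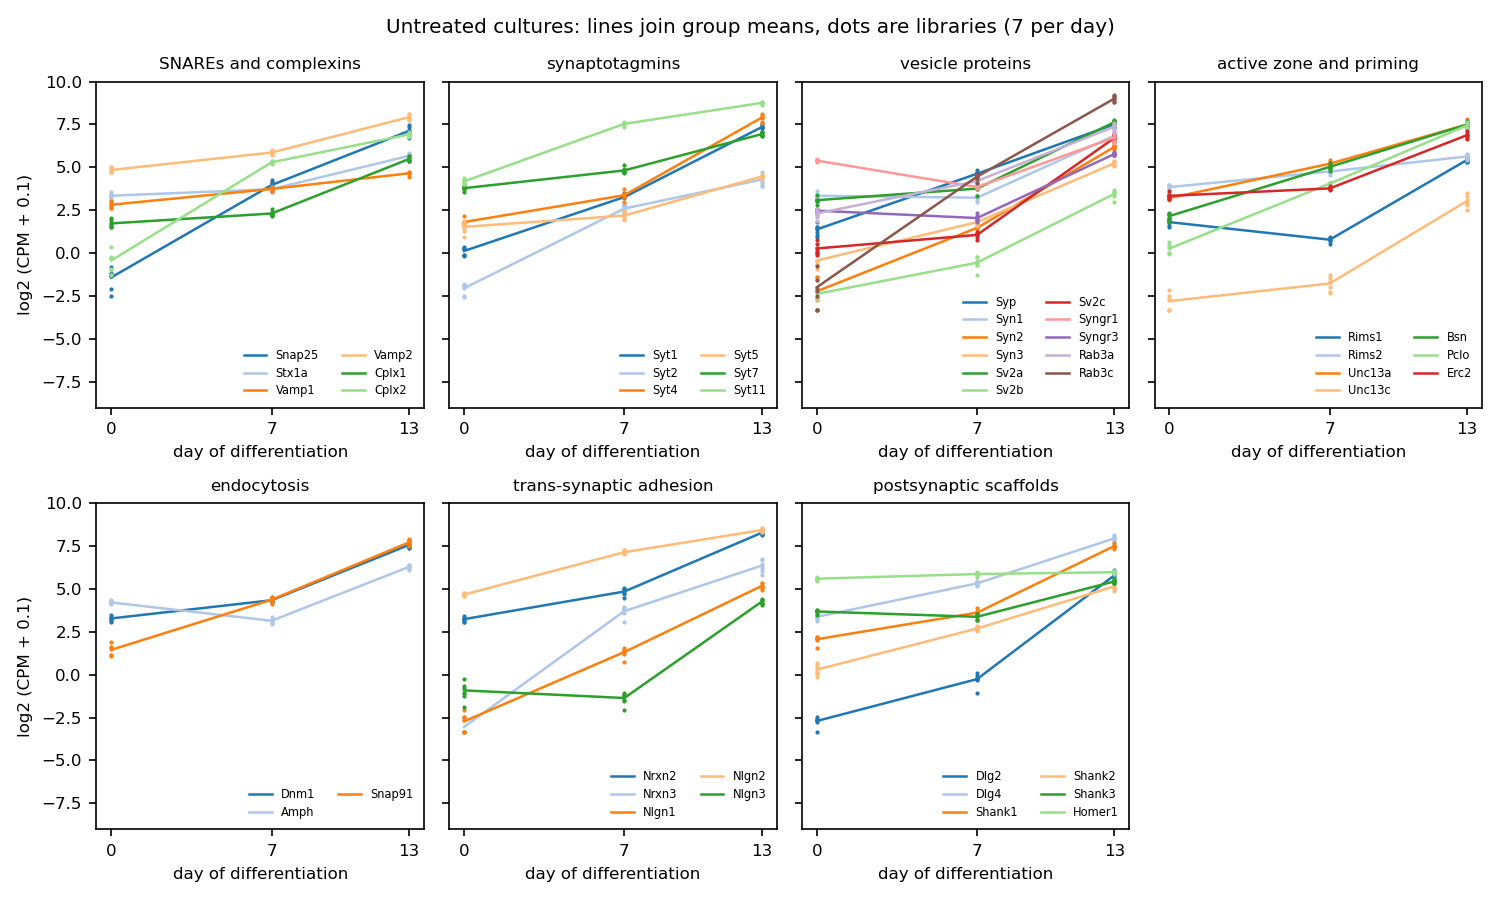
Untreated cells on days 0, 7 and 13, with log2(CPM + 0.1) on the vertical axis and 1 panel for each of the 7 roles. Lines join group means and dots are the 7 libraries. Most lines climb at both steps, while Syngr1, Rims1, Amph, Syngr3 and Shank3 dip on day 7. Nlgn3 and, slightly, Syn1 also dip there, without being called. Homer1 stays nearly level after day 7, at medians of 58.8 and 63.3 CPM.

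Among the SNAREs and complexins, with a median day 7 to day 13 change of 2.01, Cplx1 rose most and Vamp1 least. Cplx1, a complexin, went from 4.44, 4.62 and 5.79 CPM to 40.8, 43.3 and 50.3 CPM. Vamp1, a vesicle SNARE, went from 12.0, 13.1 and 14.3 CPM to 21.9, 25.2 and 26.5 CPM, a change of 0.92 ± 0.0615. The ranges of both genes were separate on the 2 days. Among the synaptotagmins, with a median of 2.22, Syt4 rose most and Syt11 least, both being family members that are not fast calcium sensors. Syt4 went from 7.77, 9.98 and 13.1 CPM to 192, 243 and 280 CPM, a change of 4.53 ± 0.0965. Syt11 was already high on day 7, at 164, 185 and 199 CPM, and reached 404, 438 and 451 CPM, a change of 1.23 ± 0.0423. Syt2, a fast sensor of hindbrain and spinal terminals, changed by 1.71 ± 0.113, and Syt7, a slower sensor, by 2.13 ± 0.0578.

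The vesicle proteins had the largest median of the 7 roles, 3.78. Sv2c, an SV2 vesicle glycoprotein, went from 1.601, 2.056 and 2.249 CPM to 89.1, 103.5 and 116.8 CPM, a change of 5.71 ± 0.0828. Syp, synaptophysin, an abundant vesicle membrane protein, had the smallest change of the role, 2.89 ± 0.0719, from 21.4, 25.0 and 28.3 CPM to 154.4, 181.6 and 206.6 CPM. Syn1, nearly level over the earlier step at medians of 9.761 and 9.72 CPM, reached 106.4, 110.6 and 130.7 CPM. Syn3, another synapsin whose exons partly overlap Timp3 on the opposite strand, changed by 3.48 ± 0.0796. In the active zone role, with a median of 3.12, Unc13c and Rims2 marked the ends. Unc13c, a Munc13 priming protein, went from 0.0956, 0.207 and 0.308 CPM to 5.59, 7.60 and 11.3 CPM. Rims2, a RIM protein, went from 23.6, 26.9 and 29.4 CPM to 43.09, 50.01 and 54.73 CPM, a change of 0.88 ± 0.0626. Pclo, Piccolo, changed by 3.40 ± 0.0685. Unc13c stayed rare, and had the lowest level per kilobase of the 44 genes on day 13.

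The 3 endocytosis genes moved by similar amounts. Snap91, which encodes the clathrin adaptor AP180, went from 17.3, 20.8 and 23.0 CPM to 181.0, 207.0 and 243.4 CPM, a change of 3.35 ± 0.0737. Amph went from the day 7 levels above to 68.1, 78.9 and 85.0 CPM, a change of 3.15 ± 0.0607. In the adhesion role, Nlgn3, a neuroligin, went from 0.138, 0.321 and 0.370 CPM to 16.5, 18.1 and 21.4 CPM. Nlgn2, the neuroligin of inhibitory synapses, was present from day 0 and went from 132.0, 133.7 and 153.7 CPM on day 7 to 312.0, 337.9 and 379.5 CPM, a change of 1.29 ± 0.0464. Nlgn1, the neuroligin of excitatory synapses, changed by 3.89 ± 0.108. Of the exons of Nlgn3, 41.2% overlap another annotated gene on the same strand, so its counts may have been shared.

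The postsynaptic scaffolds spanned the widest range, with Shank1 at 3.89 ± 0.0681, Dlg4 at 2.63 ± 0.0622 and Shank2 at 2.48 ± 0.087 between the ends. Dlg2, which encodes PSD-93, had 6 counts over the day 0 group and went from 0.370, 0.752 and 0.964 CPM on day 7 to 45.1, 55.0 and 67.2 CPM, a change of 6.22 ± 0.122. Homer1, which links receptors to Shank, stood at 44.6, 48.6 and 52.1 CPM on day 0, 52.3, 58.8 and 62.6 CPM on day 7 and 57.2, 63.3 and 66.9 CPM on day 13. Its change from day 7 to day 13 was 0.11 ± 0.0452 with an adjusted p of 0.0241, and the groups overlapped. Homer1 was the only member that was not called from day 7 to day 13 when only the 2 groups entered the fit.

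Several gene families changed their makeup over the course, measured as each member's share of the family's summed CPM per kilobase of exon (mean ± SD, n = 7 libraries). Cplx2 made up 8.27% ± 3.81 of the listed complexins on day 0, 78.1% ± 1.961 on day 7 and 54.6% ± 3.43 on day 13. Rims1 made up 25.2% ± 2.08 of the RIM pair on day 0, 7.87% ± 1.13 on day 7 and 55.1% ± 2.45 on day 13. The larger share passed from Cplx1 to Cplx2 by day 7, and from Rims2 to Rims1 by day 13. Among the Shanks, Shank3 held 73.7% ± 3.02 on day 0 and 18.7% ± 1.12 on day 13, when Shank1 held 68.3% ± 1.13. Nrxn3 held 33.0% ± 2.88 of the neurexin pair on day 7 and 22.3% ± 3.25 on day 13. Vamp2 and Nlgn2 held 91.6% to 96.3% and 92.6% to 99.1% of the listed genes of their families on the 3 days.

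On day 13 in untreated cells the level per kilobase was highest for Syt11, with a mean of 82.9 CPM per kilobase, followed by Rab3a at 74.1, Vamp2 at 63.6, Syt4 at 61.2 and Nlgn2 at 59.2. Rab3a is a vesicle GTPase and Vamp2 the main vesicle SNARE of the forebrain. The lowest were Vamp1 at 2.46, Nlgn3 at 2.04, Sv2b at 1.30 and Unc13c at 0.925 CPM per kilobase. Neighbours in this order, such as Sv2a at 42.8 and Rab3c at 42.7, were not separated by the spread between libraries.

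With fluoxetine on day 7, 0 of the 42 members tested were called, beside 0.0513% of 15601 genes tested. Unc13c and Nlgn3 were too low to be tested on that day. At an unadjusted p under 0.05 there were 3 members, beside 9.13% of all genes, and the counts were 0 with DESeq2 and 0 with limma voom. The median log2 change of the members was -0.04.

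With venlafaxine on day 7, 3 of 42 members were called, beside 3.84% of all genes tested, 1.9% higher and 1.94% lower. These were Syp and Snap91, which were higher, and Dnm1, which was lower, and 7 members had an unadjusted p under 0.05, beside 17.3% of all genes. Syp (chrX:7638471-7653256, plus strand) stood at 21.37, 25.0 and 28.25 CPM in controls and 27.4, 30.31 and 31.0 CPM with venlafaxine, a change of 0.29 ± 0.0724 with an adjusted p of 0.022. Snap91 (chr9:86765923-86880654, minus strand) stood at 17.31, 20.78 and 23.01 CPM in controls and 22.56, 25.03 and 27.04 CPM with venlafaxine, a change of 0.27 ± 0.066 with an adjusted p of 0.0195. In both genes the groups overlapped slightly at the edge. Of the exons of Syp, 16.8% overlap an antisense gene, and whether the counting used strand is not known here. Dnm1 (chr2:32308471-32353338, minus strand), the neuronal dynamin that cuts vesicles from the membrane, stood at 18.4, 19.81 and 22.68 CPM in controls and 12.78, 16.78 and 18.01 CPM with venlafaxine, a change of -0.335 ± 0.0764 with an adjusted p of 0.0112. Every venlafaxine library was below every control library for Dnm1, as was the case for 0.808% of all genes.

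The calls on day 7 did not rest equally on all libraries. With each of the 14 libraries left out in turn, Dnm1 was called 14 times, Snap91 13 times and Syp 12 times. Syp was not called without untreated replicate 4 or 5, and Snap91 was not called without venlafaxine replicate 5. With replicate number added to the fit, Dnm1 and Snap91 were called and Syp was not. Fluoxetine values of the same genes on day 7 were 20.96, 25.99 and 31.77 CPM for Syp, 20.62, 23.25 and 26.82 CPM for Snap91 and 15.21, 17.95 and 19.54 CPM for Dnm1. None of these fluoxetine changes was called (adjusted p 0.568, 0.335 and 0.478). Between the 2 drugs, given at unequal concentrations, no member was called on day 7, 0 of 42 by edgeR and also by DESeq2 and voom, with 0.147% of all genes called. At an unadjusted p under 0.05 there was 1 member, beside 8.38% of all genes.

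**Figure D3:**
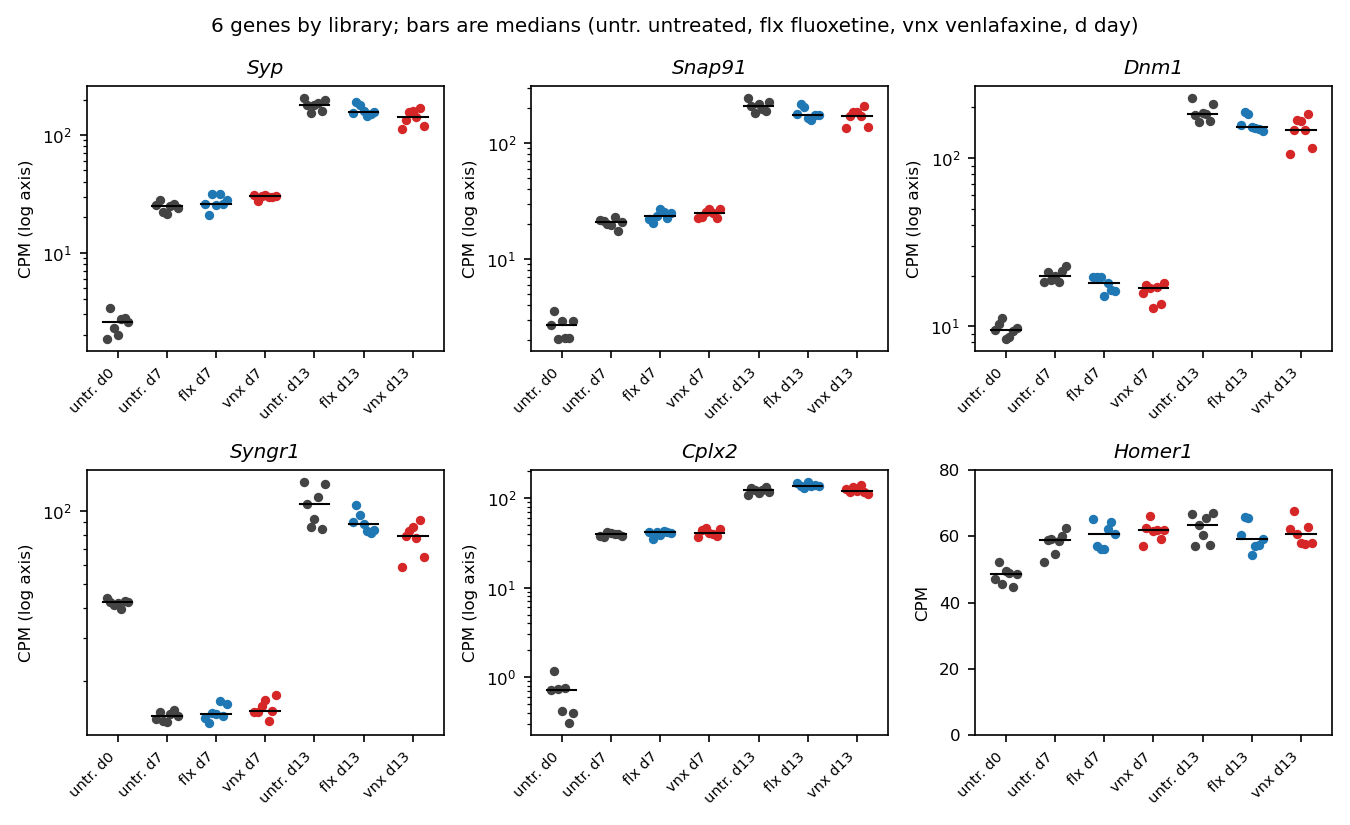
CPM of each library for Syp, Snap91, Dnm1, Syngr1 and Cplx2 on a log axis and Homer1 on a linear axis from 0, in the 7 groups, with a bar at the median. On day 13 the venlafaxine medians lie below the control medians for Syp (142.9 against 181.6 CPM), Snap91 (171.7 against 207.0), Dnm1 (146.4 against 183.8) and Syngr1 (79.33 against 106.8), with overlap between libraries.

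With fluoxetine on day 13, 0 of 44 members were called, beside 0.116% of 16397 genes tested. At an unadjusted p under 0.05 there were 13 members, where 14.1% of all genes had one, and 41 of 44 log2 changes were below 0, with a median of -0.11. The member closest to the threshold was Cplx2 (chr13:54371349-54383917, plus strand), which was higher. Cplx2 stood at 108.0, 121.3 and 132.8 CPM in controls, 130.5, 136.6 and 150.6 CPM with fluoxetine and 111.1, 118.7 and 138.8 CPM with venlafaxine. All 7 fluoxetine libraries were above the control median, and the change was 0.22 ± 0.0502 with an adjusted p of 0.06. DESeq2 called Cplx2 and no other member, beside 2.42% of all genes with that test, and voom called none. Dlg2 was at -0.37 ± 0.114 with all 7 fluoxetine libraries below the control median and an adjusted p of 0.125.

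With venlafaxine on day 13, 25 of 44 members fell and 0 rose, while 22.9% of all genes tested were called and 11.3% were called lower. At an unadjusted p under 0.05 there were 32 members, beside 38.5% of all genes. The median log2 change was -0.26 over the members and -0.005 over all genes, 43 of the 44 changes were below 0, and Cplx2 stood at 0.03. The members that fell included all 3 endocytosis genes, 4 of 6 SNAREs and complexins, 3 of 6 synaptotagmins, 7 of 11 vesicle proteins, 4 of 7 active zone genes, 2 of 5 adhesion genes and 2 of 6 scaffolds. Changes were small, and in 1 gene, Syngr3, every venlafaxine library lay below every control library, as 0.653% of all genes did. The count depended on a few libraries. It ranged from 6 to 29 as each library was left out in turn, and was 6 without untreated replicate 1, untreated replicate 8, venlafaxine replicate 1 or venlafaxine replicate 8. It was 12 without untreated replicate 6 and 15 without venlafaxine replicate 2. Untreated replicates 1 and 8 had the highest summed level of the 44 genes among untreated day 13 libraries, 6585 and 6291 CPM, and venlafaxine replicates 1 and 8 the lowest of all day 13 libraries, 3976 and 4050 CPM. With venlafaxine replicates 1 and 8 both left out, 0 members were called, 41 were below 0 and the median was -0.16. Those 2 libraries were left out because of their own member levels, so that value is a description of their weight. The genes called in all 14 fits that each left out 1 library were Stx1a, Syt1, Syp, Syn2, Syngr1 and Syngr3. With replicate number added to the fit, 1 member, Syn2, was called, beside 1.72% of all genes.

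**Figure D4:**
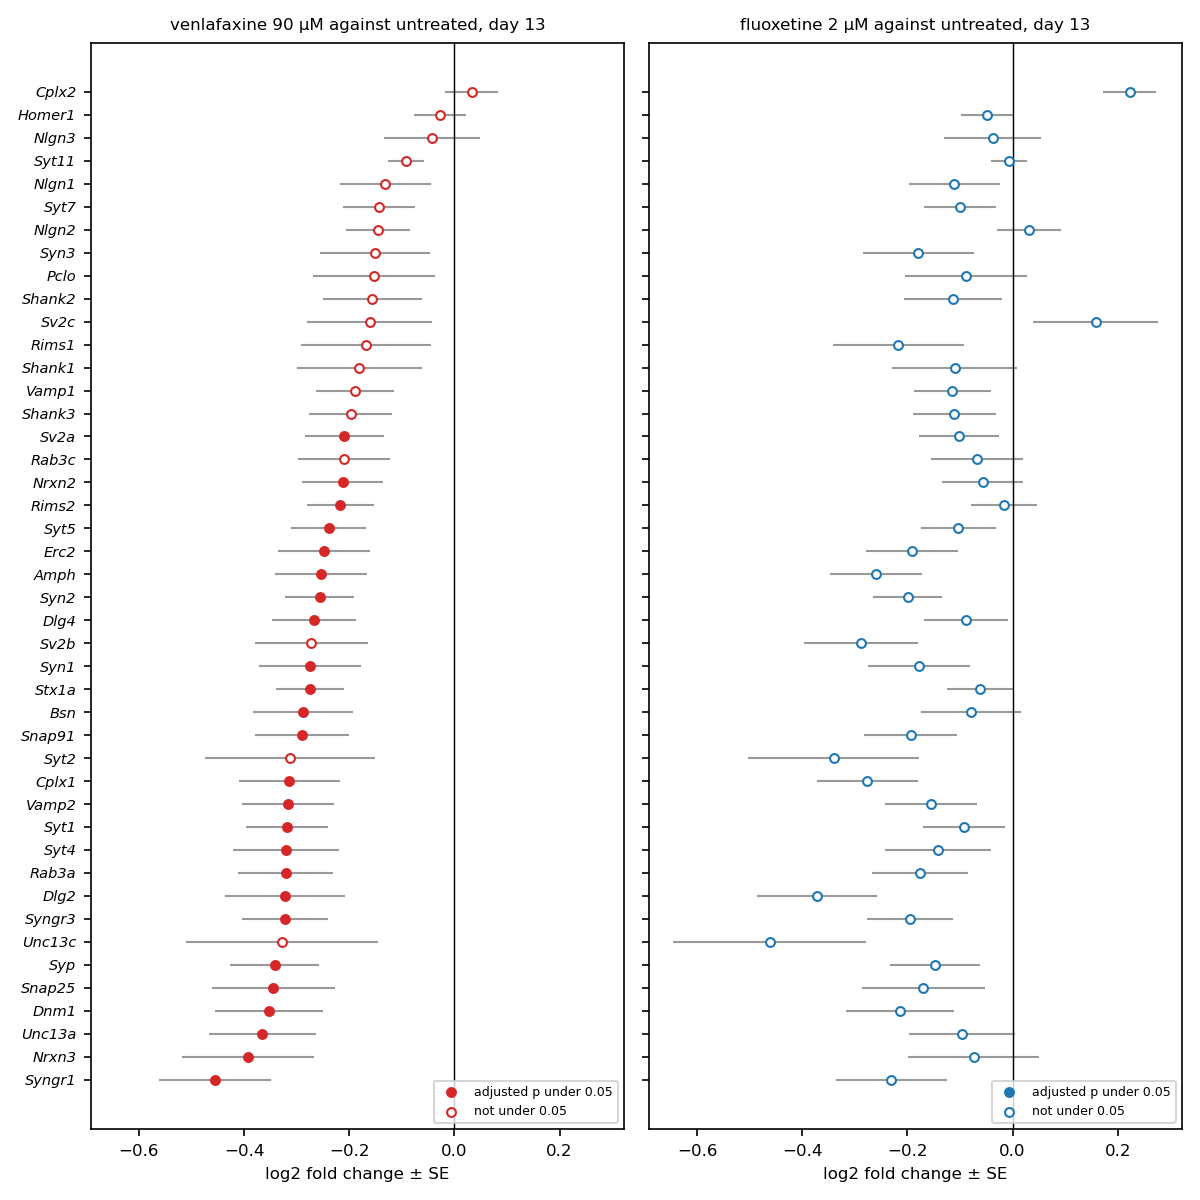
Log2 fold change ± SE against untreated day 13 cells for the 44 genes, venlafaxine on the left and fluoxetine on the right, in the order of the venlafaxine change. Filled points had an edgeR adjusted p under 0.05: 25 with venlafaxine and 0 with fluoxetine. Both panels share the same 7 control libraries.

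Of the SNARE and complexin genes, Stx1a (chr5:135023482-135051100, plus strand) stood at 46.04, 51.88 and 56.19 CPM in controls, 44.2, 46.32 and 55.17 CPM with fluoxetine and 35.41, 41.07 and 49.45 CPM with venlafaxine. Its venlafaxine change was -0.27 ± 0.0642 with an adjusted p of 0.0114. Vamp2 stood at 212.5, 234.8 and 278.2 CPM in controls, 188.4, 208.7 and 248.6 CPM with fluoxetine and 150.5, 192.5 and 233.3 CPM with venlafaxine, a venlafaxine change of -0.32 ± 0.0872. In both genes the median fluoxetine library lay between the other two medians, and the ranges overlapped. Cplx1 stood at 40.82, 43.28 and 50.32 CPM in controls, 29.64, 35.13 and 45.33 CPM with fluoxetine and 28.17, 36.6 and 44.24 CPM with venlafaxine, a change of -0.31 ± 0.0964. Snap25 fell by 0.34 ± 0.117 (adjusted p 0.041). Cplx2 did not share this, and its share of the listed complexins was 54.6% ± 3.43 in controls, 63.0% ± 4.41 with fluoxetine and 60.6% ± 4.16 with venlafaxine (n = 7 libraries). Vamp1 was at -0.19 with an adjusted p of 0.0665.

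Of the synaptotagmins, Syt1 (chr10:108497650-109010982, minus strand), the fast calcium sensor of forebrain terminals, stood at 135.4, 160.4 and 182.5 CPM in controls, 136.8, 145.8 and 173.1 CPM with fluoxetine and 105.2, 134.2 and 157.7 CPM with venlafaxine. The venlafaxine change was -0.32 ± 0.0785 with an adjusted p of 0.0137. Syt5 stood at 19.5, 22.28 and 23.56 CPM in controls, 17.74, 19.43 and 23.32 CPM with fluoxetine and 15.17, 18.64 and 21.55 CPM with venlafaxine. Syt4 stood at 192.3, 242.9 and 279.9 CPM in controls, 185.7, 208.9 and 252.3 CPM with fluoxetine and 145.3, 194.0 and 230.3 CPM with venlafaxine. The venlafaxine changes were -0.24 ± 0.0713 for Syt5 and -0.32 ± 0.101 for Syt4. Of the exons of Syt4, 14.5% overlap an antisense gene, and whether the counting used strand is not known here. Syt11 was at -0.09 and was not called (adjusted p 0.0555).

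Of the vesicle proteins, Syngr1 (chr15:80091334-80119501, plus strand) had the largest change of all called members. It stood at 84.22, 106.8 and 131.6 CPM in controls, 81.23, 88.18 and 106.1 CPM with fluoxetine and 59.02, 79.33 and 91.63 CPM with venlafaxine, a venlafaxine change of -0.46 ± 0.106 with an adjusted p of 0.0114. Syp stood at 154.4, 181.6 and 206.6 CPM in controls, 144.9, 156.6 and 189.6 CPM with fluoxetine and 112.5, 142.9 and 169.6 CPM with venlafaxine, a change of -0.34 ± 0.0851 (adjusted p 0.014). This is the opposite direction to its day 7 change. Syngr3 (chr17:24685092-24689955, minus strand) stood at 51.87, 53.13 and 58.31 CPM in controls, 40.26, 47.19 and 56.58 CPM with fluoxetine and 34.84, 44.62 and 51.35 CPM with venlafaxine, a change of -0.32 ± 0.0817 (adjusted p 0.0147). Syn2 (chr6:115134902-115282006, plus strand), a synapsin, stood at 66.69, 75.02 and 77.16 CPM in controls, 53.23, 59.89 and 71.78 CPM with fluoxetine and 51.74, 62.77 and 66.98 CPM with venlafaxine, a venlafaxine change of -0.26 ± 0.0656 (adjusted p 0.0151). The fluoxetine median of Syn2 was the lowest of the 3, yet its fluoxetine change was not called. The highest venlafaxine library of Syn2 was just above the lowest control library. Rab3a fell by 0.32 ± 0.0909, Syn1 by 0.27 ± 0.0971 and Sv2a by 0.21 ± 0.0754, and the adjusted p of Syn1 and Sv2a, 0.0466 and 0.0495, lay just inside the threshold. Rab3c was at -0.21 and was not called (adjusted p 0.0834).

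Of the active zone genes, Unc13a, which encodes Munc13-1, the main priming factor, stood at 147.9, 179.8 and 222.6 CPM in controls, 140.7, 176.6 and 180.5 CPM with fluoxetine and 106.2, 148.8 and 176.5 CPM with venlafaxine, a venlafaxine change of -0.37 ± 0.102. Rims2 stood at 43.09, 50.01 and 54.73 CPM in controls, 43.12, 49.73 and 52.85 CPM with fluoxetine and 36.4, 44.51 and 47.41 CPM with venlafaxine, a change of -0.22 ± 0.0637. For both genes the fluoxetine median stood next to the control median. Bsn, Bassoon, stood at 160.9, 182.4 and 208.4 CPM in controls, 152.9, 163.9 and 193.4 CPM with fluoxetine and 109.8, 148.3 and 186.1 CPM with venlafaxine, a change of -0.29 ± 0.0951. Erc2, an ELKS protein of the release site, fell by 0.25 ± 0.0876 (adjusted p 0.0458).

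All 3 endocytosis genes fell with venlafaxine on day 13. Dnm1 stood at 164.5, 183.8 and 227.2 CPM in controls, 144.7, 152.9 and 187.4 CPM with fluoxetine and 105.4, 146.4 and 181.4 CPM with venlafaxine, a venlafaxine change of -0.35 ± 0.103. Snap91 stood at 181.0, 207.0 and 243.4 CPM in controls, 157.4, 173.5 and 215.1 CPM with fluoxetine and 133.5, 171.7 and 206.3 CPM with venlafaxine, a change of -0.29 ± 0.0892. Amph stood at 68.08, 78.86 and 85.02 CPM in controls, 56.29, 59.83 and 81.17 CPM with fluoxetine and 51.41, 63.62 and 75.94 CPM with venlafaxine, a change of -0.25 ± 0.0876. For Amph the fluoxetine median was the lowest of the 3, yet the fluoxetine change was not called.

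Of the adhesion genes, Nrxn3 stood at 56.89, 80.03 and 105.3 CPM in controls, 67.58, 76.84 and 88.08 CPM with fluoxetine and 46.97, 61.96 and 78.49 CPM with venlafaxine, a venlafaxine change of -0.39 ± 0.126. Nrxn2 stood at 286.3, 307.8 and 348.0 CPM in controls, 265.3, 283.8 and 338.7 CPM with fluoxetine and 206.9, 274.5 and 316.8 CPM with venlafaxine, with a change of -0.21 ± 0.0767 and an adjusted p of 0.0498. No neuroligin was called, and Nlgn3 was at -0.04. Of the scaffolds, Dlg4, which encodes PSD-95, stood at 207.9, 248.9 and 279.5 CPM in controls, 202.0, 228.0 and 250.9 CPM with fluoxetine and 160.0, 212.7 and 238.6 CPM with venlafaxine, a change of -0.27 ± 0.0798. Dlg2 stood at 45.14, 54.96 and 67.21 CPM in controls, 35.11, 40.39 and 53.4 CPM with fluoxetine and 35.01, 44.98 and 54.07 CPM with venlafaxine, a change of -0.32 ± 0.113. Shank1, Shank2 and Shank3, at -0.18, -0.16 and -0.20, were not called, and Homer1 was at -0.03. Of the members not called, Unc13c at -0.33 ± 0.182 and Syt2 at -0.31 ± 0.162 had the largest decreases in value, with standard errors above those of most called genes.

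Markers of neurons moved with the members on day 13. The summed CPM of 10 neuron markers was 5741, 6756 and 7819 in controls, 5706, 5905 and 7147 with fluoxetine and 4450, 5818 and 6497 with venlafaxine. With venlafaxine 7 of the 10 neuron markers were called lower (Tubb3, Rbfox3, Dcx, Elavl3, Mapt, Nefl and Stmn2), with a median of -0.29. The ratio of the members' sum to the neuron markers' sum was 0.867 ± 0.0331 in controls, 0.875 ± 0.0161 with fluoxetine and 0.8775 ± 0.0158 with venlafaxine (SD, n = 7 libraries). The summed CPM of 6 genes of dividing cells was 389.8, 571.9 and 716.9 in controls and 648.2, 714.7 and 975.6 with venlafaxine, and 5 of the 6 were called higher. Venlafaxine replicates 1 and 8 had the lowest neuron marker sums of their group, 4450 and 4774 CPM. They also had its highest sums of dividing cell genes, 975.6 and 966.6 CPM. Of the markers of the oligodendrocyte lineage 5 of 7 were higher, of astrocytes 4 were higher and 1 lower, and of endothelium 3 of 4 were higher. Over all genes tested, 11.6% were called higher and 11.3% lower. Mean sums in controls and with venlafaxine were 490.8 and 407.4 CPM for neuroendocrine markers and 1845 and 2121 CPM for neural progenitors. They were 122.5 and 163.1 CPM for pluripotent cells, 78.31 and 94.36 CPM for endoderm and 3.611 and 3.218 CPM for muscle. In each of these lists the libraries of the groups overlapped. The part of these cell markers in the members' change was not tested.

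**Figure D5:**
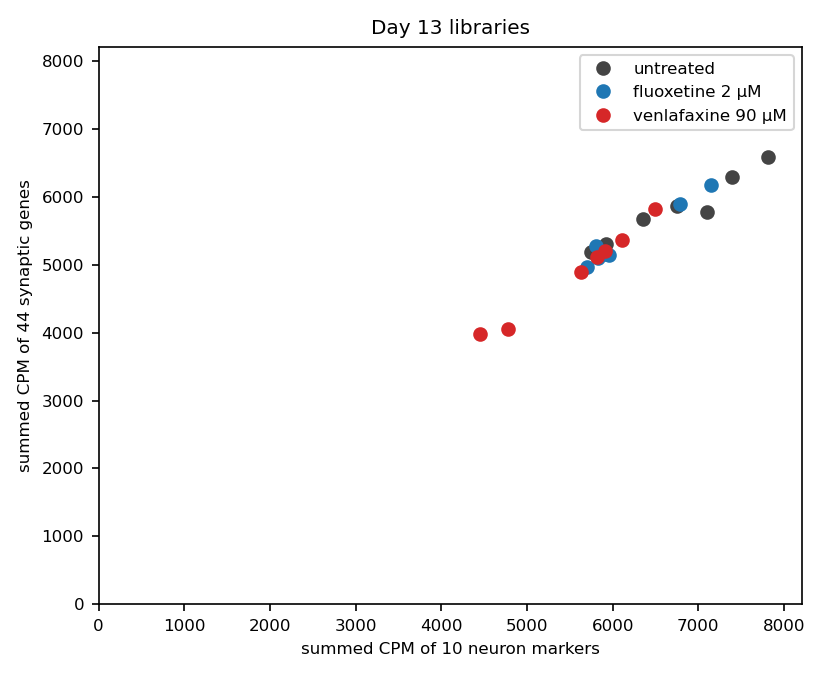
Summed CPM of the 44 genes (vertical axis) against summed CPM of 10 neuron markers (horizontal axis) in the 21 day 13 libraries, both axes from 0. The points lie near a common line through the origin, with venlafaxine replicates 1 and 8 lowest at 3976 and 4050 CPM and untreated replicate 1 highest at 6585 CPM.

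Set beside each other on day 13, the 2 drugs differed in 3 members, all lower with 90 µM venlafaxine than with 2 µM fluoxetine, while 12.1% of all genes tested were called and 5.14% were lower. These were Stx1a at -0.21 ± 0.0644 (adjusted p 0.0368), Cplx2 at -0.19 ± 0.0502 (adjusted p 0.0238) and Rims2 at -0.20 ± 0.0638 (adjusted p 0.0444). The count was 0 without fluoxetine replicate 5 or 7, or without venlafaxine replicate 2 or 8. It was 1 without fluoxetine replicate 2 or 4 or venlafaxine replicate 1, and 9 without venlafaxine replicate 7. The concentrations are not matched, so the values do not rank the compounds.

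The change with venlafaxine differed between the days in 7 members, each lower on day 13 relative to day 7, while 12.4% of 16964 genes tested were called and 4.89% were called lower. The difference of the 2 changes was -0.62 ± 0.12 for Syp (adjusted p 0.0011), -0.55 ± 0.118 for Snap91 (adjusted p 0.00259) and -0.56 ± 0.131 for Syngr1 (adjusted p 0.00495). It was -0.52 ± 0.177 for Syt4, -0.46 ± 0.136 for Unc13a, -0.40 ± 0.12 for Amph and -0.29 ± 0.0963 for Rims2. Syp and Snap91 were higher than control on day 7 and lower on day 13, whereas Dnm1, lower on both days, had a difference of -0.01. Without venlafaxine replicates 1 and 8 of day 13, 3 of the 7 were called, Syp, Syngr1 and Snap91. For fluoxetine, 0 of 44 members differed between days, beside 0.277% of all genes, with 0 by DESeq2 and by voom. At an unadjusted p under 0.05 there were 5 members, beside 13.0% of all genes.

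A further list of 49 synapse genes outside the 44 was tested in the same fits. Of the 48 tested in untreated cells, 31 rose and 14 fell from day 0 to day 7, beside 45.3% and 43.4% of all genes. From day 7 to day 13, 42 rose and 5 fell, beside 42.1% and 40.9% of all genes. The 5 that fell were Syngr2, at -1.30, Doc2a, at -1.27, Dlg1, at -0.89, Homer3, at -0.75, and Napa, at -0.13. With fluoxetine 0 were called on either day by edgeR, with 3 on day 7 and 17 on day 13 at an unadjusted p under 0.05. Of all genes, 9.13% and 14.1% had such a p on the 2 days. DESeq2 called 0 on day 7 and 4 on day 13, all 4 lower, beside 2.42% of all genes on day 13, and voom called 0 on both days. With venlafaxine on day 7, of 47 tested, the scaffold Homer3 rose by 0.20 ± 0.0399 and the calcium sensors Doc2a and Doc2b changed by -0.30 ± 0.0692 and -0.43 ± 0.0969. Of all genes, 1.9% were called higher and 1.94% lower there. With replicate number added to that fit, 1 of the 47 was called higher and 0 lower, so neither Doc2a nor Doc2b was called lower. With venlafaxine on day 13, 19 of 48 fell and 1 rose, beside 11.3% and 11.6% of all genes, with a median of -0.22. The count of 19 ranged from 8 to 26 as each library was left out in turn, and was 8 without untreated replicate 1 or 8 or venlafaxine replicate 1. It was 10 without venlafaxine replicate 8, 11 without untreated replicate 6 or venlafaxine replicate 2, and 12 without untreated replicate 2. With venlafaxine replicates 1 and 8 both left out, 0 were called. With no filter on low counts, 10 fell and 1 rose. With replicate number added to the fit, 1 fell and 0 rose, beside 1.72% of all genes called. The 19 that fell in the main fit included the adhesion gene Lrrtm2 at -0.45 ± 0.113 and the PSD-95 binding scaffold Dlgap2 at -0.58 ± 0.174. The gene that rose in the main fit was Dlg1, the SAP97 scaffold, which many cells other than neurons also express, at 0.28 ± 0.074, from 54.04, 61.83 and 70.91 CPM to 66.77, 70.66 and 89.93 CPM. Between the drugs on day 13, Rab3d and Unc13b, of 48 tested, were lower with venlafaxine, beside 5.14% of all genes. The count of lower genes ranged from 0 to 3 as each library was left out in turn. It was 0 with no filter on low counts, with replicate number added to the fit, and without venlafaxine replicates 1 and 8.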

How the data were processed

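RNA was poly(A)-selected with a stranded kit, per the labels' protocols, and the submitters' processing notes name the build GRCm38.p6 and, with no roles or order, the tools featureCounts 1.6.1, STAR 2.6.0b, FastQC 0.11.5 and bcl2fastq 2.19.0.316. Neither the counting strand nor the annotation release is stated there. The deposited values are raw counts per gene, and the authors' labels describe 8 samples per condition, of which 7 per group are analysed here. IDs were matched to GENCODE vM21 for exon lengths (52403 of 52550). A further row with the symbol Dlg2 was kept apart.

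Counts were filtered with filterByExpr, scaled with TMM and tested with edgeR 4.0.16 (robust quasi-likelihood F test, Benjamini-Hochberg over all genes tested) in R 4.3.3. Untreated groups were fitted together, the 3 groups of a day together, and the 42 libraries of days 7 and 13 together for differences between days. The scripts were tested on simulated data. Alternatives were DESeq2 1.42.0, limma 3.58.1 voom, other scaling, other filters, 2 groups only, a replicate block and libraries left out. Values per library are given for members called in a drug comparison (the 3 with the smallest p where a role had more) and for each role's extremes of untreated change. The members and lists were chosen with earlier results of these data known. Intervals of counting error are not given, and depth limits genes with few counts.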

Additional observations from a re-analysis of the deposited data

Results flagged for a closer look

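In 15 of 308 groups of 7 libraries (44 genes in 7 groups), 1 library of a member stood apart from the rest by more than Dixon's critical value of 0.568, and chance flags about 1 group in 20. On day 0 these were Syt4 in untreated replicate 3 (4.424 CPM, nearest library 3.452), Sv2a in replicate 3 (10.44, nearest 8.462), Syn1 in replicate 6 (12.38, nearest 10.42), Shank1 in replicate 7 (2.84, nearest 4.009) and Dlg2 in replicate 1 (listed at 0, nearest 0.04861). On day 7 in untreated cells they were Pclo in replicate 1 (14.62 CPM, nearest 16.17), Dlg2 in replicate 4 (0.3695, nearest 0.7171) and Sv2a in replicate 5 (9.854, nearest 13.36). With fluoxetine on day 7 it was Rims2 in replicate 2 (19.15 CPM, nearest 24.91). With venlafaxine on day 7 they were Syp (27.4 CPM, nearest 29.81) and Rab3c (19.06, nearest 22.5) in replicate 2, Rims2 in replicate 5 (24.92, nearest 28.62), and Unc13a (45.23, nearest 39.96) and Nrxn2 (36.55, nearest 27.81) in replicate 8. On day 13 it was Vamp1 in untreated replicate 7 (21.91 CPM, nearest 24.76). The venlafaxine values for Syp include the lowest library of a group that was called higher. The day 0 flag of Dlg2 rests on 1 read, as replicate 1 had 0 counts and every other day 0 library had 1.

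The change with venlafaxine differed between day 13 and day 7 by an interaction test in edgeR for 7 members. The differences in log2 change were -0.62 for Syp, -0.56 for Syngr1, -0.55 for Snap91, -0.52 for Syt4, -0.46 for Unc13a, -0.40 for Amph and -0.29 for Rims2.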

How the results depend on the processing

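The untreated course changed least with the settings, with 42 members called at the first step, or 39 with only 2 groups in the fit, and 44 at the next, or 43 with no filter or with only 2 groups. For venlafaxine on day 7 the count of 3 became 5 with DESeq2, 2 without the library of each group farthest from its fellows (Snap91 lost) and 2 with the replicate block (Syp lost). For fluoxetine on day 13 the count of 0 became 1 with DESeq2 and ranged from 0 to 1 with each library left out. For venlafaxine on day 13 the count of 25 became 10 with no filter, 15 with only 2 groups, 1 (Syn2) with the replicate block, which ended the other 24 calls, and 6 to 29 with each library left out. Leaving out venlafaxine replicates 1 and 8, an alternative chosen after seeing the data, gave 0. Over all genes the count of 3753 became 2022 with no filter and 282 with the replicate block. Between the drugs on day 13 the count of 3 became 1 with no filter, 5 with DESeq2, 0 with the replicate block, 0 without the farthest libraries, also chosen after seeing the data, 0 without venlafaxine replicates 1 and 8, and 0 to 9 with each library left out. For the difference of the venlafaxine change between days the count of 7 became 4 with no filter, 3 without replicates 1 and 8, 10 with DESeq2, 9 without the farthest libraries, 5 with voom (Syt4 and Amph lost) and 5 with the replicate block (Syt4 and Rims2 lost). The cause of these moves was not tested. No called member changed sign, but changes near 0 did, up to 13 members between the drugs on day 13 without replicates 1 and 8, and the fluoxetine day 7 median of -0.04 became 0.00094 without the farthest libraries. Correlations of the deviations of libraries with the same number ran from -0.464 to 0.242. Such values cannot settle whether equal numbers mark a shared culture or run, and the labels do not say. Over all genes DESeq2 called 397 with fluoxetine on day 13 beside 19 with edgeR. Depth limits the members with few counts on days 0 and 7.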

Other observations

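A further row of the count table carries the symbol Dlg2 under another gene ID (ENSMUSG00000108872.1) and was not added to Dlg2. It had 5 counts in all on day 0, and on day 13 stood at 1.016, 1.523 and 2.041 CPM in controls, 0.6249, 1.399 and 1.709 CPM with fluoxetine and 0.7604, 1.034 and 1.182 CPM with venlafaxine.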
